A study of Mus musculus with 30 samples.

Results

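This account concerns the response to aristolochic acid I (AAI) in the kidneys of mice with a single working copy of Trp53, the gene for the tumour suppressor p53. The members were chosen by their labels alone: the 5 arrays of Trp53(+/-) AAI kidneys and the 5 arrays of Trp53(+/-) water kidneys, which are 10 of the 30 arrays of the series. AAI was injected into the peritoneum once a day for 6 days at 3.5 mg per kg body weight, the control mice were given water by the same route, and kidneys were taken 24 h after the last dose. All mice were male C57BL/6 animals of 9 to 11 weeks, and the targeted Trp53 allele, in which a neomycin cassette takes the place of part of the gene, was carried in every cell of the body. The other 4 groups of 5 arrays, AAI and water kidneys of Trp53(+/+) and of Trp53(-/-) mice under the same dosing, entered for the estimate of the spread, for tests of whether effects differed, and for the levels and control contrasts given beside them. A portion of whole kidney was hybridised to a mouse Clariom S array, so that each value is the log2 RMA level of 1 gene in a mixed tissue. No source used here says that the 5 mice of a group came from separate litters. The p-values rest on the spread between mice within groups, pooled over all 6 groups of the series.

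The cDNA of the 30 samples was made in 2 batches, as marked in the study's clustering of the arrays, and in Trp53(+/-) mice the batch and the treatment were the same split. All 5 Trp53(+/-) AAI kidneys lay in batch 1 and all 5 Trp53(+/-) water kidneys in batch 2, so the effect of AAI and the effect of the batch cannot be told apart in the comparison reported here. Batch 1 also held the Trp53(+/+) water kidneys and 4 of the Trp53(+/+) AAI kidneys. Batch 2 held both Trp53(-/-) groups and the remaining Trp53(+/+) AAI kidney, which is not identified in the sources used here.

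AAI is a nitro compound of Aristolochia plants that damages the kidney and causes cancer. It enters the cells of the proximal tubule, the first part of the nephron, which takes back sugars, amino acids, phosphate and filtered protein and secretes organic anions. The organic anion transporters OAT1 (Slc22a6) and OAT3 (Slc22a8) carry it into these cells, where its reduction yields DNA adducts. Damaged DNA stabilises p53, a transcription factor that raises genes of cell cycle arrest such as Cdkn1a (p21) and of its own turnover such as Mdm2. Injured tubule cells lose their transport and oxidative enzymes, make injury proteins such as KIM-1 (Havcr1) and NGAL (Lcn2), and signal to fibroblasts and macrophages.

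The samples were kidney by their defining genes. In the water kidneys the log2 level was 12.22 ± 0.09 (SD, n = 5) for Umod, the uromodulin of the loop of Henle, 12.35 ± 0.06 for the phosphate carrier Slc34a1 and 8.80 ± 0.18 for Nphs1, the nephrin of podocytes, where the upper quartile of all genes' mean levels was 7.21. Pearson correlations over all genes ran from 0.982 to 0.988 among the AAI arrays and from 0.984 to 0.989 among the water arrays. The level of Trp53 itself, which would check the genotype, was not analysed here. Genes of fat cells varied within both groups: Adipoq (adiponectin) reached 7.39, 6.08 and 6.82 in water replicates 4 and 1 and AAI replicate 2, and lay between 3.94 and 5.07 on the other 7 arrays. These 3 arrays were the highest for 8 of 14 fat-cell genes looked at after their values had been seen. None of the 14 was called by limma, and 1 passed the adjusted p, lipoprotein lipase (Lpl), which was at 9.13 to 9.31 after AAI and 9.63 to 10.75 after water. Its adjusted p was 0.047, and leaving out any 1 of 8 arrays raised it to between 0.0668 and 0.14. Without the 3 arrays 326 genes were called, of which 270 were also called with all arrays. Genes described here that no longer passed the adjusted p without them were Perp, Gria3, Slc22a8, Abcb1b, Cyp2e1, Slc34a1, Rrm1, Mmp12, Egf, Ccr2, Pvalb and Lpl, whose adjusted p was then between 0.0573 and 0.17.

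AAI for 6 days was followed by a rise of genes of p53, tubular injury, cell shape and inflammation and by a fall of genes of the proximal tubule. A gene is called here when the limma adjusted p was under 0.05 and the change at least 2-fold. Of 22139 genes tested, 155 were called higher after AAI (0.700% of those tested) and 175 lower (0.790%), and 31 of these 330 have no symbol here. At the adjusted p alone 782 genes rose (3.53%) and 843 fell (3.81%). An unadjusted limma p under 0.05 was reached by 3471 of the 22139 genes. List counts at the unadjusted p should be read beside that share. All 5 AAI arrays lay above all 5 water arrays for 905 genes (4.09%) and below them for 943 (4.26%), and 302 of the 330 called genes were among these. Most changes were moderate, since 310 of the called genes changed by 2-fold to 4-fold and 20 by more. The tissue is a mixture, so fewer cells of a type and less RNA per cell cannot be told apart.

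**Figure D1:**
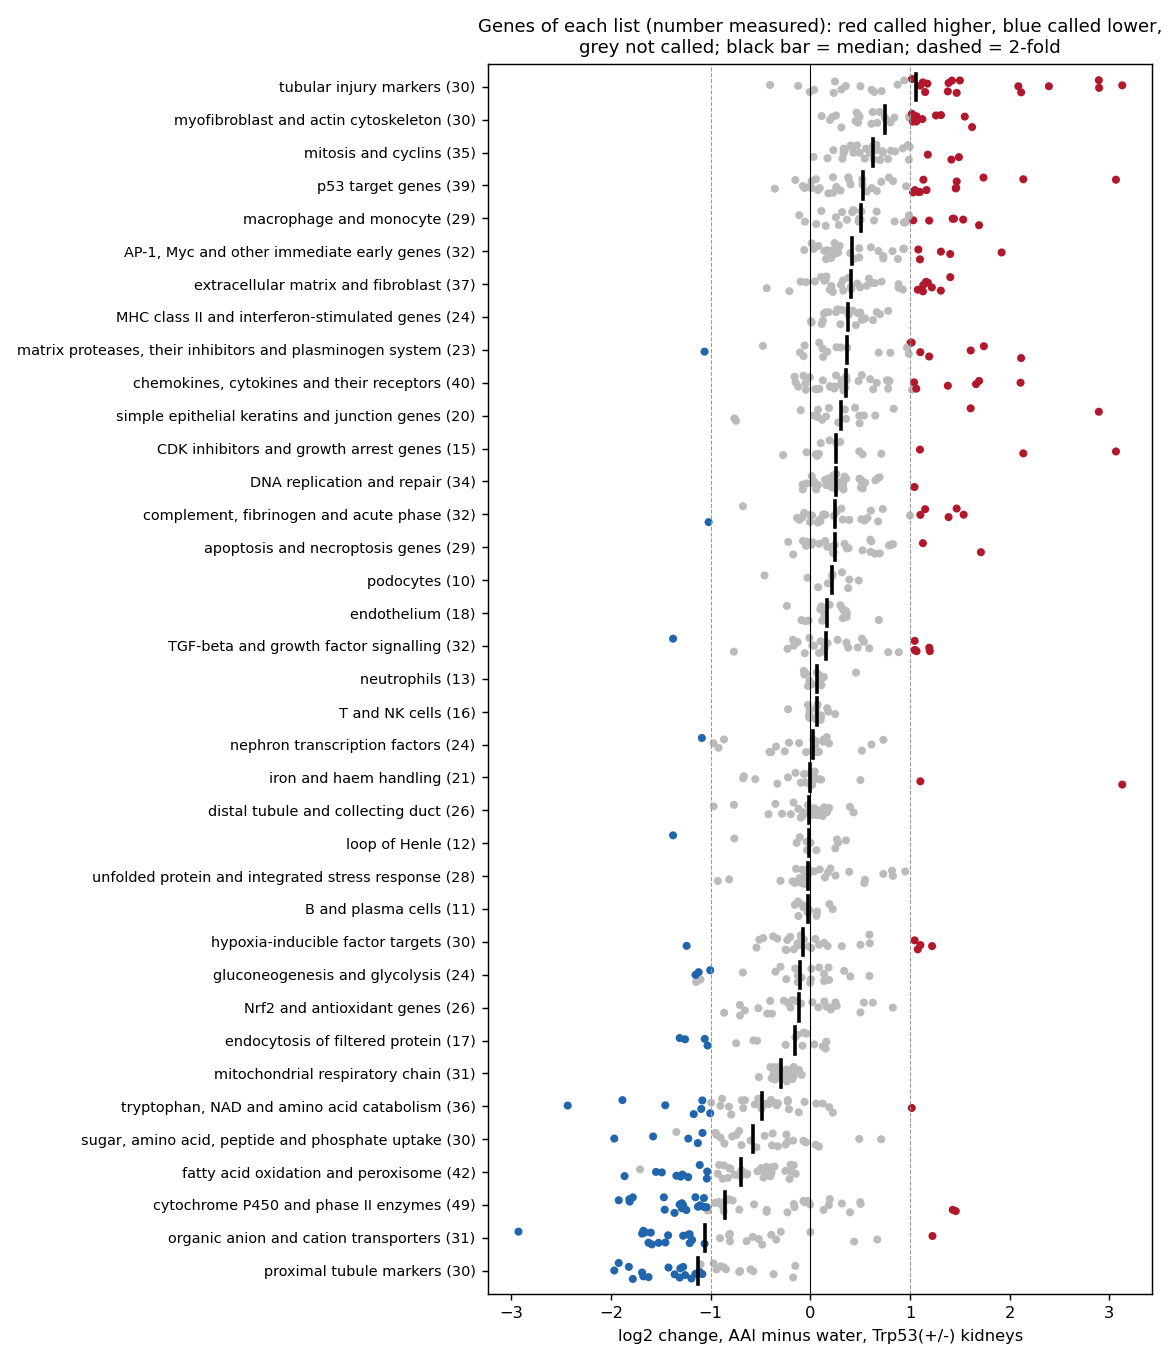
Each point is the log2 change (AAI minus water) of 1 gene in Trp53(+/-) kidneys, arranged by gene list with the number of measured members in brackets, with black bars at the medians and dashed lines at 2-fold. Lists of tubular injury and of actin genes lay highest, with medians of 1.06 and 0.75, and lists of proximal tubule markers and organic anion transporters lowest, with medians of -1.13 and -1.06.

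Genes that p53 switches on rose with a single copy of Trp53 present. Of 39 measured p53 target genes 12 were called higher and 0 lower, 23 rose at the adjusted p, and their median change was 0.52 on the log2 scale beside 0.0014 over all genes tested. Cdkn1a, which encodes the cyclin-dependent kinase inhibitor p21, lay at 9.57, 9.85, 9.91, 9.76 and 9.73 in the AAI kidneys and at 7.33, 6.80, 6.41, 6.81 and 6.15 in the water kidneys. The groups were far apart and the AAI kidneys were the more uniform (SD 0.13 against 0.45). The change was 3.07 ± 0.34 (log2, SE), or 8.37-fold, with an adjusted p of 1.4e-06. Eda2r, a member of the TNF receptor family, read 6.34, 6.62, 6.39, 6.03 and 6.14 after AAI and 4.81, 4.91, 4.08, 4.43 and 4.61 after water. It rose 3.33-fold (adjusted p = 1.41e-05). Plk2, a polo-like kinase, rose 4.40-fold, and Ckap2, a spindle protein, rose 2.77-fold. Plk2, Ckap2, Cdkn1a and Btg2 rose about as much in Trp53(-/-) kidneys. Their log2 changes were 2.32, 1.54, 3.27 and 1.37 there, beside 2.14, 1.47, 3.07 and 1.10 in Trp53(+/-) kidneys. For 8 of the 12 called targets the change was larger in Trp53(+/-) than in Trp53(-/-) kidneys. Mdm2, the ubiquitin ligase that removes p53, rose 2.20-fold and cyclin G1 (Ccng1) 2.24-fold. Members that did not pass the test included Bbc3 (Puma, an inducer of cell death) with a log2 change of 0.01, Sesn2 with -0.06 and Fas with 0.23. Among the 15 genes of growth arrest only Btg2, Plk2 and Cdkn1a were called. The kinase inhibitors Cdkn1b, Cdkn2a and Cdkn2b had log2 changes of -0.27, 0.10 and 0.30 that did not pass the test. Cdkn2a lay at a mean of 3.12 after AAI, under the lower quartile of all genes' mean levels, 4.58.

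Promoter sequences of p53 targets are shown because these genes moved together and because 5 of the 11 called members with a promoter in the table (45.5%) hold the same short motif, of which 4 are printed. The p53 decamer motif was searched on both strands in 300 bases around each RefSeq start (250 before, 50 after, GRCm38.p6). It was found for 11 of 31 p53 target genes that have a promoter in the table (35.5%), for 16 of 101 genes called higher (15.8%) and for 1342 of 15691 genes tested (8.55%). The 250 bases before the start are given 5′ to 3′ on the gene's strand, with matches in capitals, for Cdkn1a (chr17:29090729-29090978, plus strand, 2 matches), Ckap2 (chr8:22185820-22186069, minus strand), Mdm2 (chr10:117710759-117711008, minus strand) and Ccng1 (chr11:40755287-40755536, minus strand). A match is a description of the letters and not a measured binding site.
Cdkn1a: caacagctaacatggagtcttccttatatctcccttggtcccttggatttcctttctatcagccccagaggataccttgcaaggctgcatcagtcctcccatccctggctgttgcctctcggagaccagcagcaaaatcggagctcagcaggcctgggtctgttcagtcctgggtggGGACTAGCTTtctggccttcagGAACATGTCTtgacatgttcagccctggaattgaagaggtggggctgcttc
Ckap2: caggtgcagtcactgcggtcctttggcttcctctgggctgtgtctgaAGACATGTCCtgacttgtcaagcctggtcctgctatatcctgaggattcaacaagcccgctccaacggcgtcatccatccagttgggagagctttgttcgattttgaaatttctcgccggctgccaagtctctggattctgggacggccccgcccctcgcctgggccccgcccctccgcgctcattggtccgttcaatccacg
Mdm2: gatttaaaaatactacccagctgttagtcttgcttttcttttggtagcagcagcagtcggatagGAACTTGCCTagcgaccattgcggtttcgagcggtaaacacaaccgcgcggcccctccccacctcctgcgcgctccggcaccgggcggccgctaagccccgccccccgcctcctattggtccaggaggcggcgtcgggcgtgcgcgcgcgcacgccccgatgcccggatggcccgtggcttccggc
Ccng1: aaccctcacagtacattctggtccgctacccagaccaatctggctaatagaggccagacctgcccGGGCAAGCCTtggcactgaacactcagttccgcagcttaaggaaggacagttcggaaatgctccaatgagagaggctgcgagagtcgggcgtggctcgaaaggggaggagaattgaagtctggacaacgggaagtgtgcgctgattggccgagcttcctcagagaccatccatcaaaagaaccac

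Markers of tubular injury had the highest median change of the lists. Of 30 measured genes 16 were called higher and 0 lower, with a median log2 change of 1.06. Lcn2, the iron-binding protein NGAL that injured tubules secrete, lay at 9.62, 9.75, 8.53, 10.22 and 9.93 in AAI kidneys and at 6.66, 6.29, 6.13, 6.55 and 6.77 in water kidneys. Replicate 3 was the lowest of the AAI kidneys but still above every water kidney, and the rise was 8.75-fold (adjusted p = 1.28e-06). Havcr1, the phosphatidylserine receptor KIM-1 of injured proximal tubule cells, read 11.43, 11.34, 11.76, 11.63 and 11.44 after AAI and 7.92, 8.39, 8.16, 9.40 and 9.23 after water. Here the AAI kidneys were close together and the water kidneys spread over more than 1 log2 unit, and the rise was 7.45-fold (adjusted p = 0.00182). Krt20, a keratin of stressed epithelium, rose 7.43-fold and the hyaluronan receptor Cd44 rose 5.25-fold. Timp1, an inhibitor of matrix proteases, rose 4.33-fold and the calcium-binding protein S100a6 rose 4.25-fold. Of 20 keratin and junction genes only Krt20 and Cldn1 (claudin-1, 3.05-fold) were called. The injury markers Il18, Tff3 and Hmox1 had log2 changes of -0.12, -0.01 and 0.50 that did not pass the test. Il18 and Tff3 had mean levels of 4.17 and 3.84 after AAI, under the lower quartile of all genes' mean levels, 4.58.

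**Figure D2:**
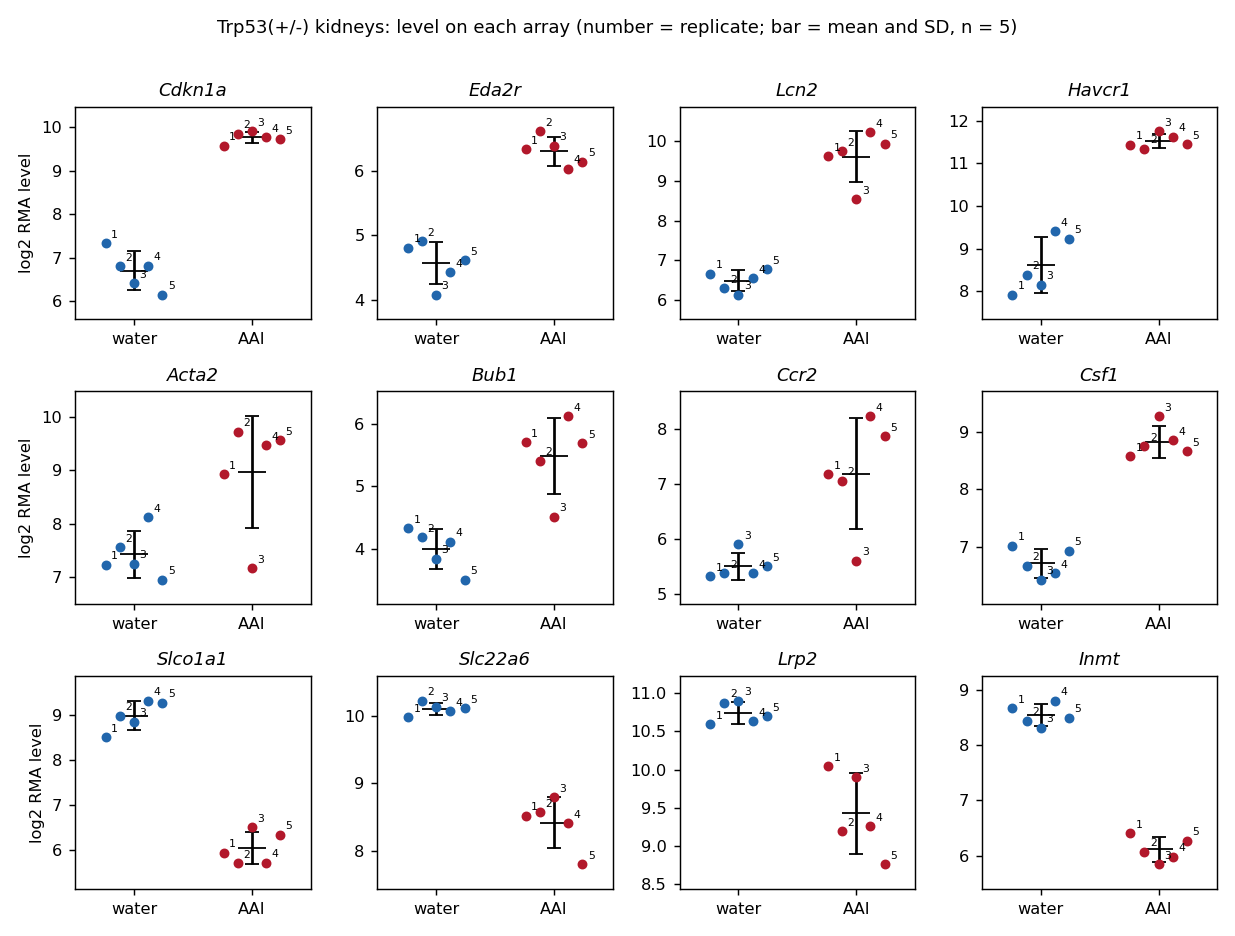
Log2 RMA level of 12 genes on each Trp53(+/-) array (number = replicate), with the mean and SD of the 5 water and the 5 AAI kidneys. Groups were separate for Cdkn1a, Eda2r, Lcn2, Havcr1, Bub1, Csf1, Slco1a1, Slc22a6, Lrp2 and Inmt, while AAI replicate 3 lay among the water kidneys for Acta2 and Ccr2.

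The proximal tubule lost expression across its transport and marker genes. Of 30 proximal tubule markers 17 were called lower and 0 higher, 25 fell at the adjusted p, and the median log2 change was -1.13. Among 31 organic anion and cation transporters 16 were called lower and 1 higher, with a median of -1.06. Slco1a1, an uptake carrier for steroid conjugates and bile acids, lay at 5.95, 5.72, 6.52, 5.73 and 6.35 in AAI kidneys and at 8.51, 8.98, 8.85, 9.31 and 9.27 in water kidneys. This was the largest fall among all genes tested, 7.60-fold (adjusted p = 4.54e-06). Slc22a6 (OAT1), which carries AAI into the cell, read 8.52, 8.58, 8.80, 8.42 and 7.81 after AAI and 9.97, 10.22, 10.13, 10.06 and 10.11 after water. It fell 3.19-fold (adjusted p = 1.82e-05), with the groups more than 1 log2 unit apart. Slc22a8 (OAT3) fell 2.42-fold with an adjusted p of 0.0116, and without AAI replicate 5, the lowest array, the log2 change was -1.11 at an adjusted p of 0.0525. Slc22a7 (OAT2) fell 3.08-fold, the cation carrier Slc22a2 (OCT2) 2.28-fold and the urate and phosphate carrier Slc17a3 2.34-fold. The 1 transporter called higher was Abcb1b, a P-glycoprotein that pumps drugs out of the cell, which rose 2.34-fold (adjusted p = 0.00282). At the adjusted p alone 2 of the 31 rose and 23 fell.

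Genes of reabsorption fell less evenly. Of 30 carriers of sugars, amino acids, peptides and phosphate 5 were called lower, with a median of -0.57. Slc7a13, an aspartate and glutamate carrier of the straight proximal tubule, lay at 9.93, 8.42, 10.65, 9.68 and 9.59 in AAI kidneys and between 11.41 and 11.82 in water kidneys. All 5 AAI kidneys were below every water kidney, and the fall was 3.91-fold (adjusted p = 0.000412). Slc34a1, the main phosphate carrier, fell 1.92-fold (adjusted p = 0.0121), which is under the fold limit, and the sodium and glucose carrier Slc5a2 had a log2 change of -0.17 that did not pass the test. Of 17 genes for the uptake of filtered protein 4 were called lower, among them both giant receptors. Lrp2 (megalin) lay at 10.04, 9.20, 9.90, 9.26 and 8.76 after AAI and between 10.59 and 10.90 after water, a 2.48-fold fall (adjusted p = 0.000229). Cubn (cubilin), its partner, fell 2.39-fold. Their adaptor Amn and the endosomal chloride carrier Clcn5 had log2 changes of -0.15 and -0.08 that did not pass the test.

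Enzymes of the proximal tubule followed the transporters. Of 42 genes of fatty acid oxidation and the peroxisome 11 were called lower and 0 higher, and 25 fell at the adjusted p, with a median of -0.70. Eci3, a peroxisomal isomerase, fell 3.64-fold, Ehhadh, the bifunctional enzyme of peroxisomal oxidation, fell 2.81-fold, and Acox2, an oxidase of branched chains and bile acid precursors, fell 2.44-fold. Of 49 cytochrome P450 and conjugation genes 18 were called lower and 2 higher. Cyp4b1 and Cyp2e1, both monooxygenases, fell 3.79-fold and 3.43-fold, and the glucuronosyltransferase Ugt2b37 fell 3.52-fold. The P450 enzymes Cyp1a1 and Cyp1a2, which metabolise AAI, had log2 changes of -0.07 and -0.03 that did not pass the test. Their mean levels after AAI were 3.75 and 3.09, below the lower quartile of all genes' mean levels, 4.58. A change in them might therefore not be detectable here. Of 36 genes of tryptophan, NAD and amino acid breakdown 7 were called lower and 1 higher. Inmt, which methylates indole amines, lay at 6.40, 6.07, 5.84, 5.98 and 6.27 after AAI and at 8.67, 8.44, 8.31, 8.80 and 8.50 after water. The groups lay far apart and the fall was 5.40-fold (adjusted p = 1.4e-06). Aadat and Kmo, enzymes of the kynurenine pathway, fell 3.69-fold and 2.74-fold. Miox, which starts the breakdown of inositol in the tubule, fell 3.53-fold, and the gluconeogenic Fbp1 fell 2.22-fold. None of 31 genes of the mitochondrial respiratory chain was called by limma, although 10 of them fell at the adjusted p and 21 passed an unadjusted p of 0.05, with a median of -0.29.

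Factors that set the tubular programme moved in part. Of 24 nephron transcription factors only Hnf4g was called, lower by 2.12-fold (adjusted p = 0.000691). Its relative Hnf4a, a nuclear receptor that drives proximal tubule genes, fell 1.96-fold (adjusted p = 0.00137), just under the fold limit, while Pax2 and Pax8 had log2 changes of 0.17 and 0.09 that did not pass the test. Of 26 antioxidant genes that the factor Nrf2 controls or that act beside them, and of 28 genes of the unfolded protein and integrated stress response, none was called by limma. At the adjusted p 3 antioxidant genes rose and 7 fell, and 6 stress response genes rose and 2 fell, and 14 and 9 passed an unadjusted p of 0.05.

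Immediate early genes and genes of cell division rose. Of 32 AP-1, Myc and other early genes 5 were called higher, with a median of 0.42. Egr1, a zinc finger factor, lay at 9.20, 9.37, 8.51, 9.49 and 9.38 after AAI and between 6.95 and 7.60 after water, a 3.78-fold rise (adjusted p = 2.06e-05). Ccn1, a matricellular protein, rose 2.64-fold and Egr2 rose 2.48-fold, and Fos had a log2 change of 0.14 that did not pass the test. The letters TGANTCA, in which N is any base, include the sites that AP-1 binds. They were found on either strand in the 300 bases around the start of 20 of 101 genes called higher (19.8%). Among these were Havcr1, Mmp12 and the related genes Bcl2a1a, Bcl2a1b and Bcl2a1d. The letters were also found for 12 of 133 called lower (9.02%) and for 1310 of 15691 tested (8.35%). Early genes with a promoter held them in 2 of 25 cases (8%), and called ones in 0 of 4. Of 35 genes of mitosis and cyclins 3 were called higher and 15 rose at the adjusted p, with a median of 0.63. Bub1, a kinase of the spindle checkpoint, read 5.70, 5.41, 4.51, 6.12 and 5.68 after AAI and 4.33, 4.18, 3.84, 4.11 and 3.51 after water. It rose 2.81-fold (adjusted p = 0.00298), with AAI replicate 3 closest to the water kidneys. The proliferation marker Mki67 rose 2.67-fold and Ube2c, which marks mitotic proteins for removal, rose 2.26-fold. Of 34 genes of DNA replication and repair only Rrm1, a subunit of ribonucleotide reductase, was called (2.06-fold higher).

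Genes of cell shape and matrix rose in most AAI kidneys. Of 30 genes of the myofibroblast and actin cytoskeleton 10 were called higher and 23 rose at the adjusted p, with a median of 0.75. Acta2, the smooth muscle actin of myofibroblasts and vessel walls, lay at 8.93, 9.72, 7.17, 9.46 and 9.56 after AAI and at 7.23, 7.55, 7.25, 8.12 and 6.95 after water. The mean rise was 2.93-fold (adjusted p = 0.00227), but AAI replicate 3 lay within the range of the water kidneys. For Tagln (transgelin) AAI replicate 3, at 7.62, also lay within the range of the water kidneys, 7.13 to 7.82, against 9.01 to 9.89 in the other AAI kidneys, and the mean rose 3.08-fold. Flna (filamin A), which cross-links actin, rose 2.48-fold with an adjusted p of 1.48e-06 and no overlap. The CArG box of serum response factor was found in the promoter of 4 of 26 members of this list (15.4%) but of 0 of the 8 called members with a promoter, beside 266 of 15691 genes tested (1.70%). Of 37 genes of the extracellular matrix 8 were called higher. Fibronectin (Fn1) rose 2.65-fold, Col3a1 2.48-fold and thrombospondin-1 (Thbs1) 2.33-fold, and the collagen genes Col1a1 and Col1a2 had log2 changes of 0.23 and 0.38 that did not pass the test. Of 23 proteases and inhibitors 7 were called higher and 1 lower. Mmp12, the macrophage elastase, read 6.90, 7.34, 5.30, 8.14 and 7.45 after AAI and 4.97 to 5.53 after water, with AAI replicate 3 again among the water kidneys, and its mean rose 3.34-fold (adjusted p = 0.00771).

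Macrophage genes and their growth factor rose, and those of lymphocytes did not pass the test. Csf1, the growth factor of macrophages, lay at 8.58, 8.75, 9.28, 8.85 and 8.66 after AAI and at 7.02, 6.67, 6.43, 6.54 and 6.93 after water, a 4.31-fold rise (adjusted p = 5.27e-05) without overlap. Of 29 genes of macrophages and monocytes 6 were called higher, with a median of 0.50. Ccr2, the receptor of recruited monocytes, read 7.18, 7.06, 5.60, 8.25 and 7.87 after AAI and 5.33 to 5.91 after water, and its mean rose 3.23-fold (adjusted p = 0.00509) although AAI replicate 3 did not leave the water range. The scavenger receptor Msr1 rose 2.72-fold and lysozyme (Lyz2) 2.69-fold. The defining markers Adgre1 and Csf1r had log2 changes of 0.43 and 0.06 that did not pass the test, and Cd68 was not analysed here. Of 40 chemokine and cytokine genes 6 were called higher, among them Ccl2, the ligand of Ccr2 (2.60-fold), and Il1rn, the interleukin-1 receptor antagonist (3.16-fold). None of 16 genes of T and NK cells, 11 of B and plasma cells or 13 of neutrophils passed the adjusted p by limma in either direction, 0 passed an unadjusted p of 0.05, and their largest log2 change was 0.46, for S100a8. The levels of Cd3e and Ms4a1 were 5.02 ± 0.16 and 4.90 ± 0.16 (SD, n = 5) in AAI kidneys, near the lower quartile of all genes' mean levels, 4.58, so that small numbers of lymphocytes would not be detectable here.

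Acute phase genes rose in part. Of 32 genes of complement, fibrinogen and the acute phase 5 were called higher and 1 lower. Clu (clusterin), a chaperone of injured tubules, rose 2.77-fold, Fgg and Fga, chains of fibrinogen, rose 2.62-fold and 2.22-fold, and the protease inhibitor Serpina3n rose 2.90-fold. The remaining chain, Fgb, had a log2 change of 0.31 that did not pass the test. The letters TTCNNNGAA, a STAT motif, were found on either strand in the promoter of 6 of 22 members of this list (27.3%), Fga and Fgb among them, beside 1416 of 15691 genes tested (9.02%), 4 of 101 called higher (3.96%) and 16 of 133 called lower. Of 29 genes of cell death 2 were called higher, the survival gene Bcl2a1a (3.27-fold), which has near-identical copies that the probes may share, and the receptor Tnfrsf12a (2.19-fold).

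Other segments of the nephron showed few changes. Of 12 genes of the loop of Henle only Egf, the growth factor of the distal nephron, was called, lower by 2.60-fold (adjusted p = 0.00575). Its level was 8.16, 6.90, 8.69, 6.40 and 7.22 after AAI and between 8.72 and 8.99 after water, so that AAI replicate 3 was nearly at the level of the water kidneys and replicate 4 more than 2 log2 units below all of them. Umod and the salt carriers Slc12a1 and Slc12a3 had log2 changes of 0.25, -0.11 and 0.04 that did not pass the test. Of 26 genes of the distal tubule and collecting duct none was called by limma, and at the adjusted p 1 rose and 2 fell, among them parvalbumin (Pvalb) of the distal convoluted tubule, with a log2 change of -0.97 (adjusted p = 0.00538). At an unadjusted p of 0.05 4 of the 26 passed, a share close to that over all genes tested (3471 of 22139). None of 10 podocyte or 18 endothelial genes was called by limma, and at the adjusted p 2 podocyte genes and 1 endothelial gene passed, against 5 and 6 at an unadjusted p of 0.05. Nphs1, Pecam1 and Aqp2, the water channel of the collecting duct, had log2 changes of 0.08, 0.36 and 0.12 that did not pass the test. The vomeronasal receptor genes by the array's annotation, Vmn1r18, Vmn1r19 and Vmn1r20, were also called lower, with log2 changes of -1.94, -1.81 and -1.94. Their names come from the platform table alone.

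The 5 AAI kidneys did not respond to the same extent. Over the 155 genes called higher the median log2 distance from the water mean was 1.14, 1.41, 1.05, 1.52 and 1.41 in AAI replicates 1 to 5, and over the 175 called lower it was -0.87, -1.52, -1.05, -1.38 and -1.52. Replicate 3 was the lowest AAI array for 76 of the 155 genes and replicate 1 the nearest to water for 99 of the 175. These genes were called on the same arrays, so the medians are a description. The gene lists ordered the kidneys differently. Replicate 3 had the highest median of the p53 targets, 0.69 against 0.37 to 0.67 in the others, and the lowest of mitosis genes (0.27 against 0.55 to 0.84), of macrophage genes (0.13 against 0.48 to 0.97) and of matrix genes (0.16 against 0.41 to 0.58). Replicate 1 had the smallest fall of proximal tubule markers, -0.67 against -0.86 to -1.45, and a median of the injury markers of 1.03, within the range of the other kidneys (0.57 to 1.24). Among the genes above the median level that varied most between AAI kidneys were Acta2, Tagln, Mmp12, Ccr2 and Egf, and the fat-cell genes Car3, Cidec and Thrsp. The SD of Cidec was 0.92 in AAI and 1.61 in water kidneys, and that of Thrsp 0.91 and 1.83. For Car3, Cidec and Thrsp the log2 changes of -0.16, -0.26 and -0.56 did not pass the test.

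**Figure D3:**
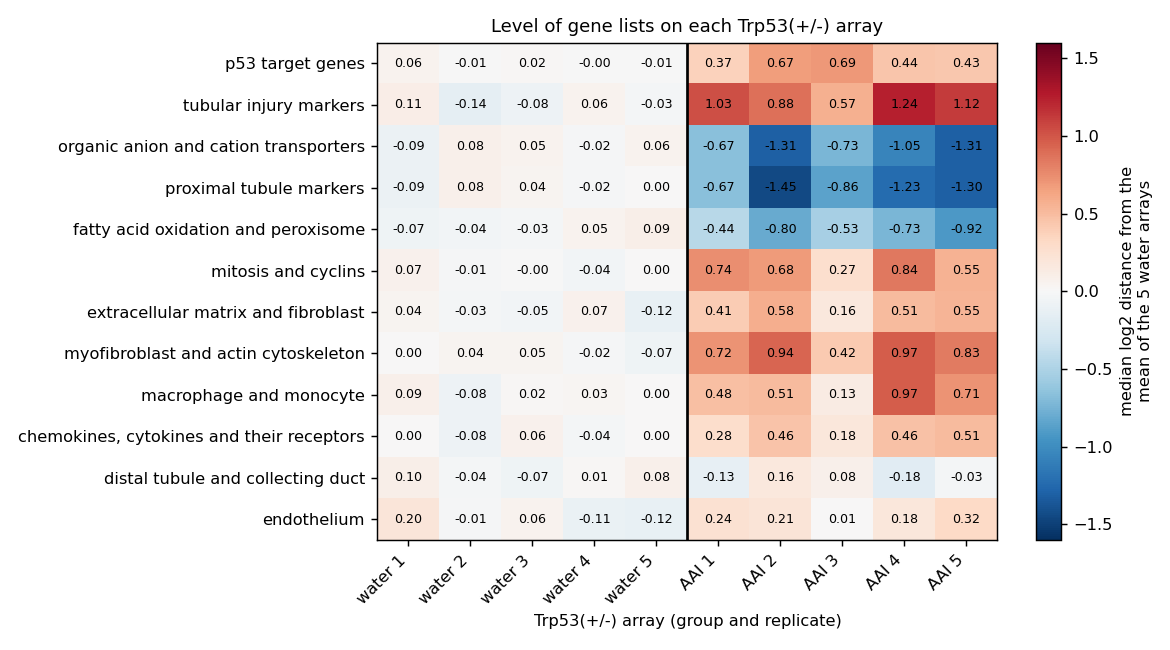
Each cell is the median log2 distance of the genes of a list from the mean of the 5 water kidneys, for each Trp53(+/-) array. AAI replicate 3 had the highest value for p53 targets, 0.69, and the lowest of the AAI kidneys for mitosis, matrix, actin and macrophage genes, and AAI replicate 1 had the smallest fall of proximal tubule markers, -0.67.

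The changes in Trp53(+/-) kidneys ran the same way as those of the other genotypes and were smaller in size. Each genotype has its own controls, so the comparisons share no array. Of the 330 called genes, 329 were also called in the same direction in Trp53(+/+) kidneys, where 1337 genes were called, and 310 in Trp53(-/-) kidneys, where 1363 were. The median absolute log2 change over these 330 genes, which were chosen on the Trp53(+/-) arrays, was 1.27, beside 2.35 for Trp53(+/+) mice and 2.28 for Trp53(-/-) mice. The difference of the effects themselves passed an adjusted p of 0.05 for 408 genes between Trp53(+/-) and Trp53(+/+) kidneys (1.84% of those tested), and the effect was smaller in Trp53(+/-) kidneys for all 408. Between Trp53(+/-) and Trp53(-/-) kidneys it passed for 571 genes (2.58%), with the smaller effect in Trp53(+/-) kidneys for 559 of them. In Trp53(+/-) mice the AAI and water kidneys lay in different cDNA batches. In each of the other genotypes they shared a batch, but for 1 Trp53(+/+) AAI kidney. The part of the batch in these differences cannot be told apart. With batch as a term in limma, the counts of differing genes were 0 and 7, 282 and 418, 0 and 59, 0 and 13, or 3 and 69 for Trp53(+/+) and Trp53(-/-), according to which Trp53(+/+) AAI kidney (replicates 1 to 5 in turn) was placed in batch 2. The counts also rest in part on single arrays, since without AAI replicate 1 they were 247 and 395, without AAI replicate 3 they were 248 and 364, and without the 3 arrays high in fat-cell genes 183 and 278.

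**Figure D4:**
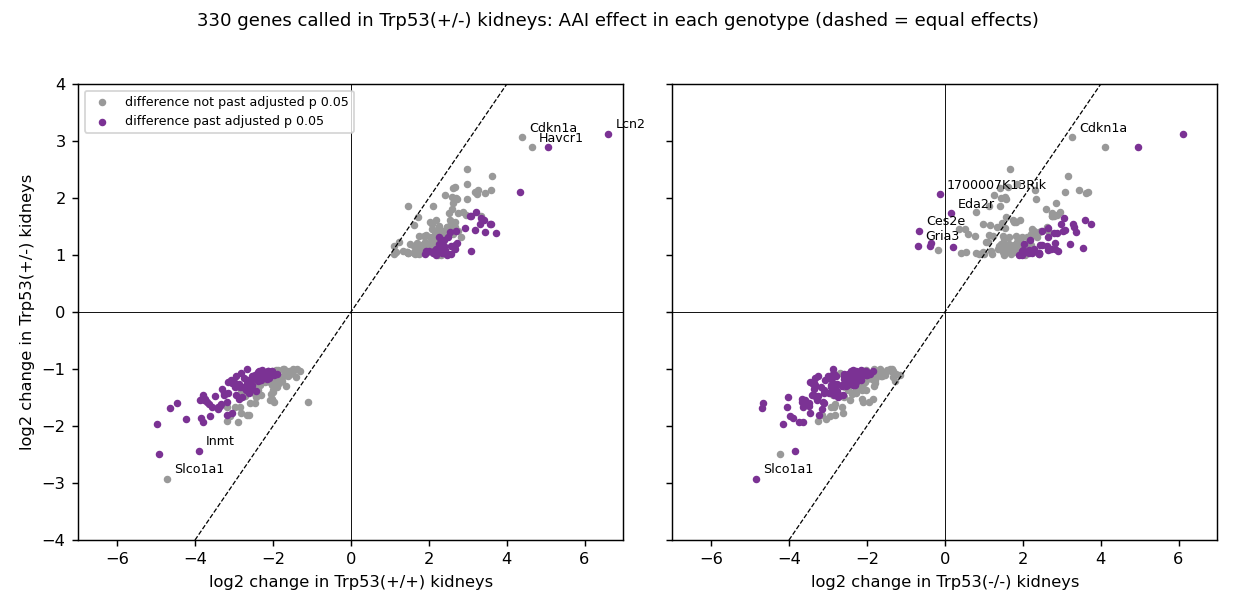
Log2 change (AAI minus water) of the 330 genes called in Trp53(+/-) kidneys, plotted against the change in Trp53(+/+) kidneys (left) and Trp53(-/-) kidneys (right), with equal effects on the dashed line. Purple marks the 137 and 150 of these genes whose effects differed past an adjusted p of 0.05, and Ces2e, Eda2r, Gria3 and 1700007K13Rik stand above the line on the right.

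Transporters and injury genes were among those with the smallest adjusted p of the difference from the other genotypes in the fit without a batch term. Lcn2 had a log2 change of 3.13 in Trp53(+/-) mice beside 6.61 in Trp53(+/+) and 6.11 in Trp53(-/-) mice, and both differences passed the test (adjusted p = 0.000346 and 0.000535). Slc17a3 had log2 changes of -1.22, -3.17 and -3.48 in Trp53(+/-), Trp53(+/+) and Trp53(-/-) mice (adjusted p = 0.000678 and 6.71e-05), and Slc22a6 of -1.67, -3.58 and -4.06 (adjusted p = 0.00216 and 0.000108). Further genes with the smallest p of the difference from Trp53(+/+) kidneys were Hsd3b5, a steroid dehydrogenase, Tmem45a, Armcx3, Acox2, Slc7a13, Fgg and the signal transducer Stat3, which had log2 changes of 0.71 and 1.82 in Trp53(+/-) and Trp53(+/+) kidneys (adjusted p = 0.00117). From Trp53(-/-) kidneys they were Ces2e, Cyp2j13, Sucnr1 (the succinate receptor), Slc27a2 (a fatty acid carrier), Cubn and Sgo1, the protector of sister chromatids, with log2 changes of 0.51 and 2.40 (adjusted p = 0.000208). Of 35 mitosis genes 13 differed from Trp53(-/-) kidneys at the adjusted p, and their median change was 0.63, beside 1.49 in the latter and 0.87 for Trp53(+/+) mice.

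A small set of genes ran the other way in the comparison with Trp53(-/-) kidneys. The effect was larger in Trp53(+/-) kidneys for 12 genes, all with a positive log2 change after AAI. Of these 7 were called, and Zfp750 did not pass the test of AAI against water (0.35, adjusted p = 0.0597). On the list of p53 targets are 5 of the 12, where 39 of the 22139 genes tested are on that list. In either direction 6 of the 39 differed from Trp53(-/-) kidneys, beside 571 of the 22139. Ces2e, a carboxylesterase, had a log2 change of 1.43 in Trp53(+/-) kidneys, with one of 2.21 in Trp53(+/+) and -0.67 in Trp53(-/-) kidneys (difference from the latter 2.10, adjusted p = 6.71e-05). The gene 1700007K13Rik rose by 2.07, with changes of 3.25 and -0.13 in the same order (difference 2.20, adjusted p = 0.0015), and Eda2r by 1.74, with changes of 2.52 and 0.15 (difference 1.59, adjusted p = 0.00416). Named after their values were seen, Ccng1, Mdm2, Zfp365 and Perp had log2 changes of 1.17, 1.13, 0.96 and 0.57 in Trp53(+/-) and of -0.37, 0.20, 0.08 and -0.22 in Trp53(-/-) kidneys, and all 4 differences passed the test. The glutamate receptor gene Gria3 changed by 1.17 and -0.68 (adjusted p = 0.0062), and without the 3 arrays high in fat-cell genes its log2 change in Trp53(+/-) kidneys was 0.86 at an adjusted p of 0.17. Of the 12 genes 11 changed less in Trp53(+/-) than in Trp53(+/+) kidneys, and that difference passed the test for 1, Zfp365 (-1.09, adjusted p = 0.0137). Cdkn1a was not among them: its log2 changes were 3.07, 4.40 and 3.27 in Trp53(+/-), Trp53(+/+) and Trp53(-/-) kidneys, and neither difference passed the test (adjusted p = 0.203 and 0.933). Of the 12 p53 targets called in Trp53(+/-) kidneys 4 were also called higher in Trp53(-/-) kidneys, namely Cdkn1a, Plk2, Ckap2 and Btg2.

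Levels differed between groups of different genotype in AAI and in water kidneys, and not alike in the comparisons with the other genotypes. The water kidneys of Trp53(+/-) and Trp53(+/+) mice were made in different cDNA batches. The AAI kidneys of Trp53(+/-) and Trp53(-/-) mice were also made in different batches. In these comparisons batch and genotype cannot be told apart. The AAI kidneys of Trp53(+/-) and Trp53(+/+) mice mostly shared a batch. For the 155 genes called higher, Trp53(+/-) water kidneys lay above Trp53(+/+) water kidneys for all 155, by a median of 0.70 on the log2 scale, and Trp53(+/-) AAI kidneys lay below Trp53(+/+) AAI kidneys for 116, by a median of 0.24. For the 175 genes called lower, the water kidneys lay below those of Trp53(+/+) mice for 171, by a median of 0.35, and the AAI kidneys above for 173, by a median of 0.75. Set beside Trp53(-/-) kidneys, whose water group was made in the same batch, the water kidneys differed by medians of 0.02 and 0.10 for the genes called higher (84 of 155 above) and lower (139 of 175 above), and the AAI kidneys lay 0.73 lower and 1.31 higher.

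The water kidneys of the 2 batches also differed where Trp53(+/-) arrays played no part. In the contrast of Trp53(+/+) water kidneys (batch 1) with Trp53(-/-) water kidneys (batch 2), in which batch and genotype cannot be told apart, 142 genes passed an adjusted p of 0.05. The genes called higher after AAI in Trp53(+/-) kidneys had a median difference of -0.69 in it and those called lower one of 0.47. Of the 330 called genes, 0 differed at least 2-fold between these controls in the direction of the AAI effect and 36 did so in the opposite direction. The same counts over all genes tested were not made, and the part of the batch was not tested. When the Trp53(+/-) AAI kidneys were set against the Trp53(+/+) water kidneys of their own batch, 842 genes were called, among them 329 of the 330. The 330 were chosen with these same AAI arrays, so much of the overlap is built in. In that contrast treatment and genotype cannot be told apart. A batch term could be estimated only through the single Trp53(+/+) AAI kidney of batch 2, and the count of called genes then ran from 0 to 900 over the 5 kidneys that it may have been.

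**Figure D5:**
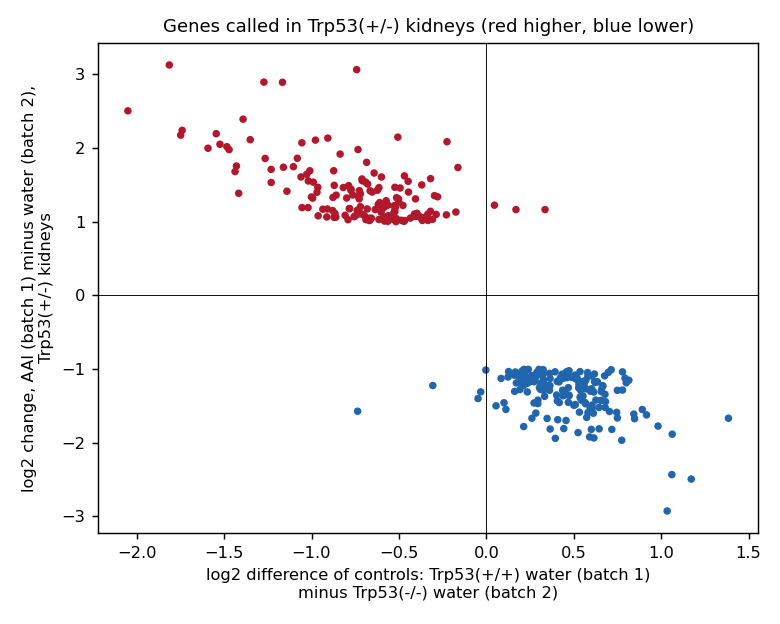
For the 330 genes called in Trp53(+/-) kidneys, the log2 change (AAI in batch 1 minus water in batch 2) is plotted against the difference between Trp53(+/+) water kidneys of batch 1 and Trp53(-/-) water kidneys of batch 2. Genes that rose (red) had a median control difference of -0.69 and genes that fell (blue) one of 0.47, and 0 genes lay beyond 2-fold in the direction of the AAI effect.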

How the data were processed

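RNA from a portion of kidney was amplified to cDNA and hybridised to mouse Clariom S arrays. The deposited values are log2 signals, normalised by the authors by RMA (Robust Multi-array Average) with the Transcriptome Analysis Console (version not given in the sources used here) and which compress large changes. Arrays have no read depth, and their number limits the precision. Of 22206 transcript clusters 19572 had a symbol, and 67 dimmer copies were left out. One mean per group was fitted to all 30 arrays with limma 3.58.1 in R 4.3.3 (Benjamini-Hochberg adjustment over 22139 genes), with contrasts for AAI minus water, for its difference between genotypes and for the water kidneys of the 2 batches. The fit was checked on simulated data.

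Members and gene lists were chosen with earlier results of these data known. Named genes were the largest changes overall and in each list, the smallest p of each difference between genotypes, the most variable among AAI kidneys, genes the study singled out and cell type markers. Ccng1, Mdm2, Zfp365, Perp, Abcb1b, Fgb, Lpl, Adipoq and most members given as not passing the test were added after their values were seen. Promoters are RefSeq sequences of GRCm38.p6, and motifs were chosen with results known; a motif search over the proximal tubule lists is not reported here. Alternatives were batch terms, normalizations, filters, thresholds, array weights and leaving out arrays.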

Additional observations from a re-analysis of the deposited data

Results flagged for a closer look

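Each gene described above and each gene list was looked at in the 5 AAI and the 5 water kidneys for an array standing apart from the other 4 by Dixon's gap ratio. Chance picks out about 1 in 20 such groups, and 8 of 236 groups of genes and 1 of 76 groups of lists were picked out. Among the AAI kidneys replicate 3 was lowest for Mki67 (6.25), and replicate 2 was highest for Cidec (7.46) and Cdkn2a (3.59). Among the water kidneys replicate 4 was lowest for Btg2 (6.25) and Slc12a1 (10.89), and replicate 1 was lowest for Cyp2e1 (10.19) and Slc27a2 (11.43) and highest for Tff3 (4.36). Water replicate 4 also had the highest median of the genes of DNA replication and repair, 0.0556 on the log2 scale.

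Among the genes described above, the effect of AAI differed between genotypes by the limma test of the difference (adjusted p under 0.05) for the following. Values are the log2 change in Trp53(+/-) kidneys minus that in the other genotype, so that a positive value for a gene that fell is a smaller fall. The cDNA batches differ between these comparisons, and their part in the differences cannot be told apart. Against Trp53(+/+) kidneys, the values for transporters, endocytic receptors and other carriers were 1.903 for Slc22a6, 1.71 for Slc22a7, 1.89 for Slc22a2, 1.94 for Slc17a3, 3.003 for Slc7a13, 1.34 for Slc27a2, 1.54 for Lrp2 and 1.61 for Cubn. Against Trp53(-/-) kidneys, the values for transporters, endocytic receptors and other carriers were 1.92 for Slco1a1, 2.39 for Slc22a6, 2.07 for Slc22a8, 1.88 for Slc22a2, 2.25 for Slc17a3, 2.18 for Slc7a13, 1.802 for Slc27a2, 1.51 for Slc34a1, 1.63 for Lrp2 and 2.12 for Cubn. Against Trp53(+/+) kidneys, the values for tubular enzymes, the succinate receptor and nuclear receptors were 1.79 for Miox, 1.47 for Inmt, 2.36 for Aadat, 1.995 for Eci3, 1.66 for Acox2, 1.59 for Cyp2j13, 1.49 for Hsd3b5 and 1.23 for Sucnr1. Against Trp53(-/-) kidneys, the values for tubular enzymes, the succinate receptor and nuclear receptors were 2.16 for Miox, 1.405 for Inmt, 1.17 for Kmo, 2.03 for Eci3, 1.22 for Fbp1, 1.36 for Acox2, 2.19 for Cyp2j13, 1.57 for Hsd3b5, 1.87 for Sucnr1, 1.2001 for Hnf4g and 1.304 for Hnf4a. Against Trp53(+/+) kidneys, the values for genes of matrix, actin and the spindle or DNA synthesis were -2.04 for Fn1, -1.501 for Thbs1, -2.04 for Acta2, -1.7997 for Tagln and -1.17 for Flna. Against Trp53(-/-) kidneys, the values for genes of matrix, actin and the spindle or DNA synthesis were -1.97 for Fn1, -1.597 for Thbs1, -2.203 for Acta2, -1.97 for Tagln, -1.35 for Flna, -1.83 for Bub1, -1.62 for Mki67, -1.31 for Ube2c, -1.198 for Rrm1 and -1.89 for Sgo1. Against Trp53(+/+) kidneys, the values for injury, macrophage and acute phase genes were -3.48 for Lcn2, -2.17 for Krt20, -2.22 for Timp1, -1.45 for Clu, -1.74 for Msr1, -1.41 for Fga, -2.34 for Fgg and -2.02 for Serpina3n. Against Trp53(-/-) kidneys, the values for injury, macrophage and acute phase genes were -2.98 for Lcn2, -2.06 for Krt20, -1.17 for Clu, -1.63 for Msr1, -1.49 for Ccl2, -1.42 for Fgg and -1.74 for Serpina3n. Among the p53 targets described above the value against Trp53(+/+) kidneys was -1.09 for Zfp365. Of all 39 measured p53 targets 2 differed from Trp53(+/+) kidneys. Against Trp53(-/-) kidneys, the values for p53 target genes and others larger than in Trp53(-/-) kidneys were 1.59 for Eda2r, 1.54 for Ccng1, 0.93 for Mdm2, 0.88 for Zfp365, 0.78 for Perp, 1.85 for Gria3, 2.204 for 1700007K13Rik and 2.098 for Ces2e. Against Trp53(+/+) kidneys, the values for other genes were 1.87 for Vmn1r18, -1.15 for Ccn1, -1.47 for Tmem45a, -1.32 for Armcx3 and -1.103 for Stat3. Against Trp53(-/-) kidneys, the values for other genes were 1.82 for Vmn1r18, 1.72 for Vmn1r20, -1.404 for Tmem45a, -0.83 for Armcx3 and -0.65 for Stat3.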

How the results depend on the processing

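The comparison rests on 5 arrays a group, and cDNA batch and treatment cannot be told apart in it. With batch as a term, which rests on 1 Trp53(+/+) AAI array against 4, the counts of genes called, differing from Trp53(+/+) and differing from Trp53(-/-) kidneys were 900, 0 and 7 with replicate 1 in batch 2, 0, 282 and 418 with replicate 2, 0, 0 and 59 with replicate 3, 153, 0 and 13 with replicate 4, and 16, 3 and 69 with replicate 5. The log2 change then turned for Slc22a2 (0.015), Cubn (0.25), Miox (0.10), Slc34a1 (0.34) and Fga (-0.11) with replicate 2, for Cyp2e1 (0.43), Mmp12 (-0.41), Il1rn (-0.15), Ccl2 (-0.09) and Lpl (0.27) with replicate 4, and for Bub1 (-0.16) with replicate 5. The cause was not tested.

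Against Trp53(+/+) water kidneys of the same batch, where genotype differs along with treatment, 842 genes were called. At the adjusted p with no fold limit 1625 were, and at 1.5-fold 1006. Leaving out each array in turn gave 287 to 400 called genes, 247 to 450 that differed from Trp53(+/+) and 364 to 592 from Trp53(-/-) kidneys. Without water replicates 1 and 4 and AAI replicate 2, chosen after seeing the data, 183 and 278 differed. Replicate numbers were not shown to pair the arrays (correlations of deviations -0.0894 to 0.057, own number best for 1 of 5), and with a replicate block 334 genes were called, with 409 and 594 differences. Under the other normalizations, filters, prior and weights tried, the number called ran from 314 to 362, and 1 of the genes described, Lpl, no longer passed the adjusted p (quantile normalization again, trended prior).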
